A study of Homo sapiens with 2 samples.

Results

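Keratin genes were taken as the protein-coding genes whose whole symbol is KRT followed by a number and at most 1 letter, which left out the keratin-associated proteins and gave 55 of 20163 protein-coding genes in the GENCODE annotation mapped to hg19. LSD1 (KDM1A), a demethylase of histone H3 lysine 4 that acts within corepressor complexes, had been profiled by chromatin immunoprecipitation and sequencing (ChIP-seq) in PC-3M-luc cells, which carry a luciferase reporter and descend from PC-3, a line of prostate carcinoma that grows without androgen. There was 1 LSD1 library, made with an anti-LSD1 antibody, and 1 input library, both from control-genotype cells at passages 17 to 20 in medium with 10% serum, and neither library had a replicate. The authors' list holds 20110 peaks, each with a position and a score, and the number of reads behind it is not given in the sources used here. The score is the authors' value for each peak and was used only to describe and rank peaks within this list. With 1 library per arm there is no replicate check and no p-value. Shares carry Clopper-Pearson 95% intervals, exact and limited to counting error. These intervals treat genes as separate draws, so they may be too narrow for clustered genes such as keratins and keratin-associated proteins. A gene without a peak is one where the authors' threshold was not passed, not one shown to lack LSD1. The list says nothing of whether a keratin was expressed, and the copy number of the keratin loci in these cells was not analysed here.

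Keratins are the intermediate filament proteins of epithelial cells. A filament is built from pairs of an acidic type I and a basic type II keratin, and the pair that a cell makes marks its kind and its stage of differentiation. KRT8 and KRT18 form the pair of simple and luminal epithelia, including the secretory cells of the prostate, KRT5 and KRT14 form that of basal cells, and others are kept for the cornifying epidermis, the cornea or the hair follicle. In the human genome the type II genes lie together on chromosome 12 and the type I genes on chromosome 17, with KRT18, a type I gene, beside KRT8 on chromosome 12. Keratins are also used as markers of epithelial state when carcinoma cells acquire mesenchymal traits, a transition in which LSD1 has been studied.

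The start regions of 1 keratin gene under a peak and of 2 without are printed as examples. Each line gives the 100 bases just upstream of the canonical transcription start site (TSS), 5′ to 3′ in the direction of transcription, from the hg19 reference. Capitals mark TATAAA, the core of the TATA box, and GGGCGG, the GC box bound by SP and KLF factors, on either strand. The KRT75 start site (chr12:52828156-52828255) lay under a peak, and those of KRT10 (chr17:38978867-38978966) and KRT31 (chr17:39553861-39553960) had none within 1 kb. All 3 genes are on the minus strand. The KRT75 line holds the letters of the GC box, and the lines of KRT10 and KRT31 hold TATAAA. Only exact letters were marked, so variants of either motif are not shown. The 3 lines do not stand for their groups. In the 250 bp upstream, TATAAA occurred at 1 of the 7 keratin genes with a promoter peak and 26 of the 48 without. GGGCGG occurred at 4 of the 7 and 6 of the 48. At the 4 keratin genes with a peak within 1 kb of the canonical TSS, TATAAA occurred at 1 and GGGCGG at 3.
KRT75: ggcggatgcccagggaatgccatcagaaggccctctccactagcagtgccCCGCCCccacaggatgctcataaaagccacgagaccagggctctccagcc
KRT10: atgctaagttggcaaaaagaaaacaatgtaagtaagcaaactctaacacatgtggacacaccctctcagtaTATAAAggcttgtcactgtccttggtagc
KRT31: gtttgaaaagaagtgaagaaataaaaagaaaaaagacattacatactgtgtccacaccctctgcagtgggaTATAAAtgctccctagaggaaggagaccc

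LSD1 peaks reached few keratin promoters, and 4 of those 7 were promoters of simple epithelial keratins. With start sites of coding transcripts only this was 3 of 6, and with the canonical start site only 3 of 4. A promoter peak was counted when any base of a peak lay within 1 kb of any annotated TSS of the gene. By this criterion KRT7, KRT8, KRT15, KRT18, KRT19, KRT75 and KRT86 carried one, 7 of 55 genes (12.7%, interval 5.27 to 24.5), whereas 58.1% of all protein-coding genes did. A peak overlapped the body of the same genes and of KRT10, making 8 of 55 (14.5%, interval 6.5 to 26.7) against 61.2% of all protein-coding genes. At the canonical TSS alone, KRT8, KRT18, KRT19 and KRT75 had a peak within 1 kb, 4 of 55 (7.27%) against 54.9%. The remaining 47 genes had a peak neither at a promoter nor in the gene. The 7 promoters rest on 8 peaks rather than on independent events, because 1 peak served KRT8 and KRT18, 1 served KRT15 and KRT19, and 1 served KRT7 and KRT86.

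The members divided by tissue of use as follows. Among simple epithelial keratins, 4 of 6 had a promoter peak (66.7%, interval 22.3 to 95.7), a share that includes the background within its wide interval, and KRT20 and KRT23 did not. Among basal and stress keratins of stratified epithelia, KRT15 was the 1 gene of 8 with a peak, and KRT5, KRT6A, KRT6B, KRT6C, KRT14, KRT16 and KRT17 had none. The differentiation keratins of stratified epithelia had none at 14 promoters (interval 0 to 23.2%), although KRT10 carried a peak in its body. KRT75 was the 1 gene of 9 among the inner root sheath and companion layer keratins, and KRT86 the 1 of 17 among hair keratins. KRT222, the remaining member, had none. Outside the simple epithelial group the count was 3 of 49 (6.12%, interval 1.28 to 16.9). By protein type, 3 of 29 type I genes (10.3%, interval 2.19 to 27.4) and 4 of 26 type II genes (15.4%, interval 4.36 to 34.9) had a promoter peak, with overlapping intervals. The plot of promoter peaks by gene group shows these shares beside those of related gene lists.

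**Figure D1:**
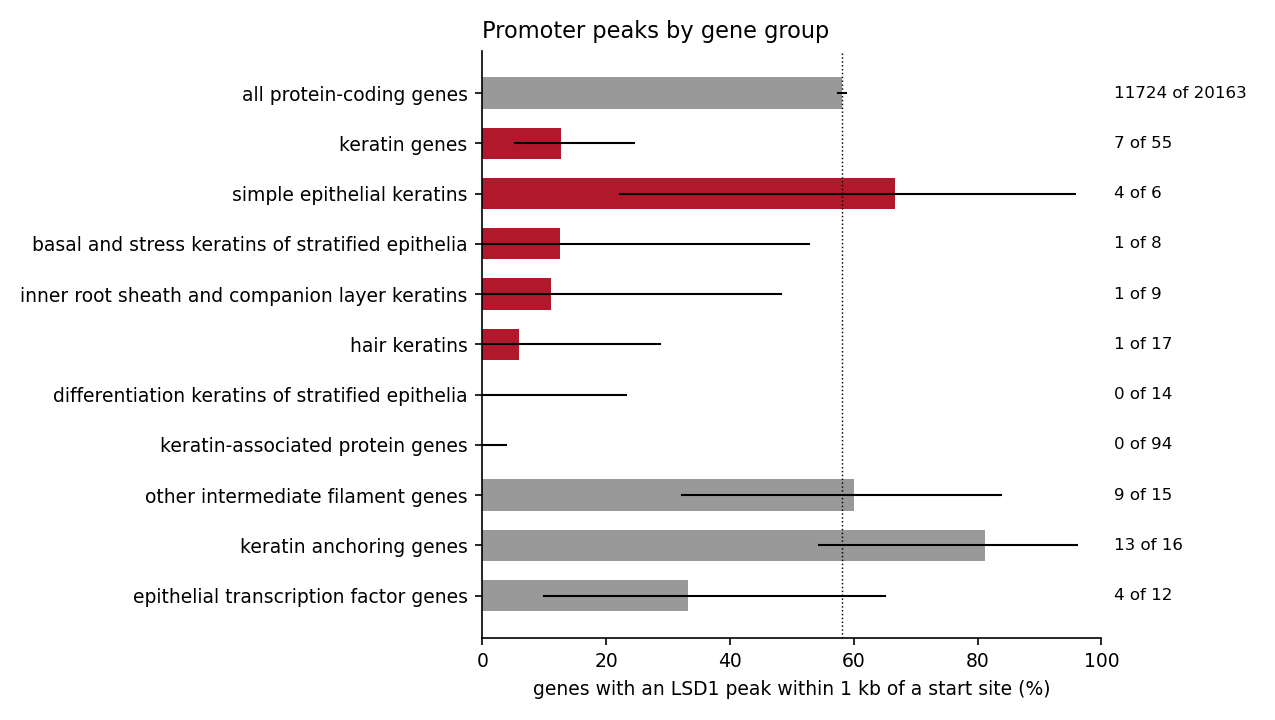
Percentage of genes with an LSD1 peak within 1 kb of any start site, by gene group, with the count at the right. Lines are exact 95% binomial intervals and the dotted line marks all protein-coding genes at 58.1%. Among keratins, only the simple epithelial group (4 of 6) stands near that line, and the differentiation keratins (0 of 14) and keratin-associated proteins (0 of 94) have no bar.

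KRT18 and KRT8, the luminal pair, carried the highest-scoring promoter peak of the family. It spanned chr12:53342243-53348324, was 6082 bp wide and scored 2687.24, and only 1.49% of all peaks scored higher. It covered KRT18 entirely (100% of 4036 bp), reaching 659 bp upstream of the canonical TSS and 5422 bp downstream, past the end of the gene, with its midpoint in a KRT18 exon. Over 90% of the gene body lay under peaks at 2.82% of all protein-coding genes, and at 2 keratin genes, KRT18 and KRT75. The same peak counted for KRT8 because some annotated KRT8 transcripts start 44700 to 44878 bp upstream of the canonical TSS, inside KRT18 on the opposite strand. KRT8 had a further peak of its own over its canonical TSS (chr12:53296790-53299590), 2801 bp wide with a score of 896.67, which 12.7% of all peaks exceeded. That peak reached 730 bp upstream and 2070 bp downstream of the TSS. Lower peaks lay at the 3′ end of KRT8 (chr12:53288780-53291107, score 238.6) and beside the shared peak (chr12:53339470-53341576, score 92.41), so that 4 peaks overlapped the KRT8 gene model and 14 of its 18 distinct start sites had a peak within 1 kb.

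KRT19, a small simple epithelial type I keratin, and KRT15, a type I keratin of basal cells, are neighbours and shared a group of 3 adjoining peaks. The KRT19 peak (chr17:39681021-39685062) was 4042 bp wide, scored 1434.17 and covered the canonical TSS, reaching 502 bp upstream and 3539 bp downstream. Peaks covered 86.3% of the KRT19 gene. A second peak between the genes (chr17:39676985-39680379, 3395 bp) scored 1070.97 and overlapped the 3′ end of KRT19 and the 5′ part of KRT15. It lay at 7 of 9 distinct KRT15 start sites, but 1843 bp from the canonical one, which had no peak within 1 kb. The third peak, upstream of KRT19 (chr17:39685204-39687253), scored 75.15, and 80.0% of all peaks scored higher. From the first to the last base the group measured 10.3 kb, with gaps of 641 and 141 bp.

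KRT7 and KRT86 had weaker peaks, away from their canonical starts. KRT7, the simple epithelial type II keratin, had 2 peaks inside the gene, at chr12:52636620-52639027 (2408 bp, score 122.27) and chr12:52640178-52642708 (2531 bp, score 94.29). The nearer one was 9593 bp downstream of the canonical TSS. The KRT7 start sites these peaks reached belong to transcripts with a retained intron or no defined coding sequence, and the 1 start site of a coding KRT7 transcript had none. Both peaks also overlapped KRT7-AS, an antisense RNA gene, and the list does not assign a peak to either strand. For KRT86, a hair keratin, the second KRT7 peak lay 376 bp from the most upstream annotated start, 25345 bp from the canonical one. A separate peak in the KRT86 body (chr12:52673435-52675509) scored 189.16, which 52.2% of all peaks exceeded. That peak lay within 1 kb of a start site of a long non-coding RNA gene. Among all members KRT86 was the one just inside the limit of 1 kb, and KRT10, at 2607 bp from its start site, was the one just outside it.

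KRT75, the keratin of the companion layer of the hair follicle, lay under the widest LSD1 peaks of the family. The peak over its only annotated TSS (chr12:52821153-52831677) was 10525 bp wide, 117th in width of the 20110 peaks, and scored 830.93. It reached 3522 bp upstream and 7002 bp downstream of the TSS. A 6388 bp peak 232 bp further on (chr12:52814533-52820920) scored 2062.34, with 2.6% of all peaks higher, and ran from the 3′ end of KRT75 into the pseudogene KRT90P. Another peak (chr12:52811053-52814399) with a score of 211.49 followed after 133 bp. The group of 3 measured 20.6 kb, and 97.7% of the KRT75 gene lay under peaks. All 3 peaks also overlapped a long non-coding RNA gene. Groups of at least 3 peaks with gaps under 1 kb were uncommon, numbering 431 in the list and holding 7.33% of its peaks.
The 100 bases at the midpoint of the second-highest-scoring peak of the family, that of 6388 bp (chr12:52817676-52817775, minus strand), hold 1 CpG and the GC box in capitals.
KRT75_second_peak: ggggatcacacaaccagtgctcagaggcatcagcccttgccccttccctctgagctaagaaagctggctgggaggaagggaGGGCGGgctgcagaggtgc

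KRT10, a type I keratin of the suprabasal epidermis, had a body peak of 1548 bp (chr17:38974712-38976259, score 304.01). It lay within 1 kb of a start site of the antisense gene KRT10-AS1, and the KRT10 start site itself had no peak within 1 kb. At all 4 genes whose canonical TSS was covered, the peak extended further into the gene than upstream of it. Across the 10780 protein-coding genes with a covered canonical TSS, 58.3% had this shape, with median reaches of 864.5 bp upstream and 1000 bp downstream.

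**Figure D2:**
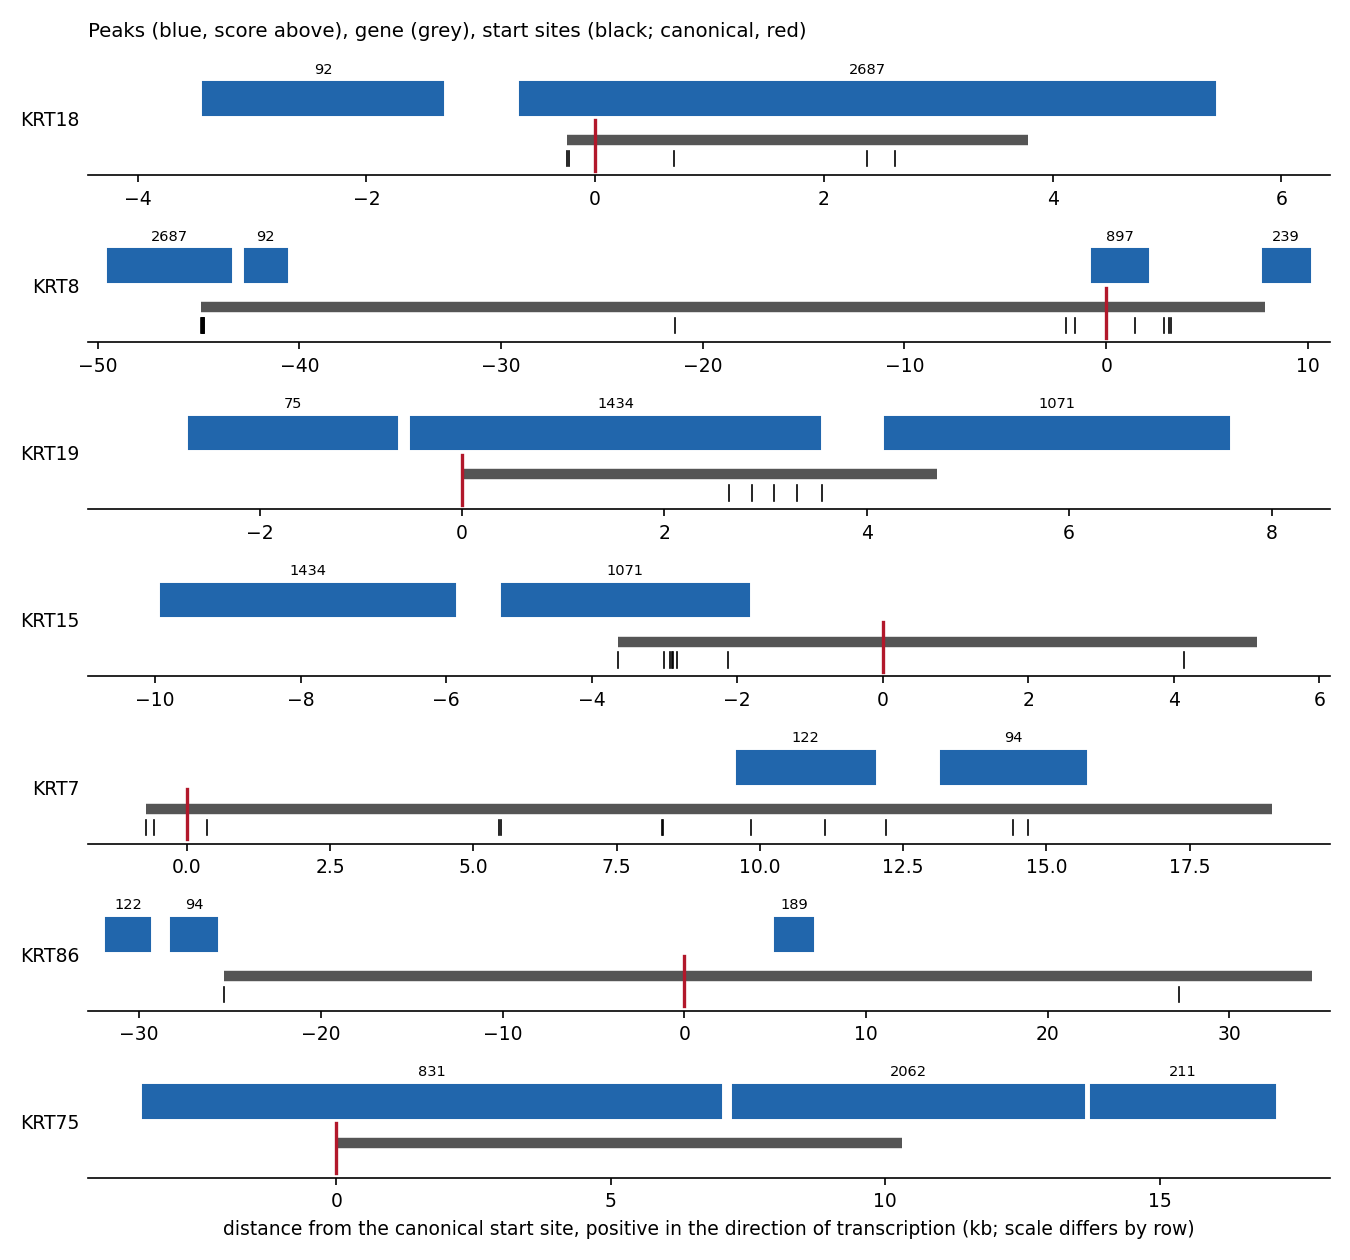
LSD1 peaks (blue, with rounded scores) around the 7 keratin genes with a promoter peak, drawn by distance in kb from the canonical start site in the direction of transcription, with gene bodies in grey, start sites in black and the canonical one in red. Peaks cover the red line at KRT18, KRT8, KRT19 and KRT75 and miss it at KRT15, KRT7 and KRT86.

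**Figure D3:**
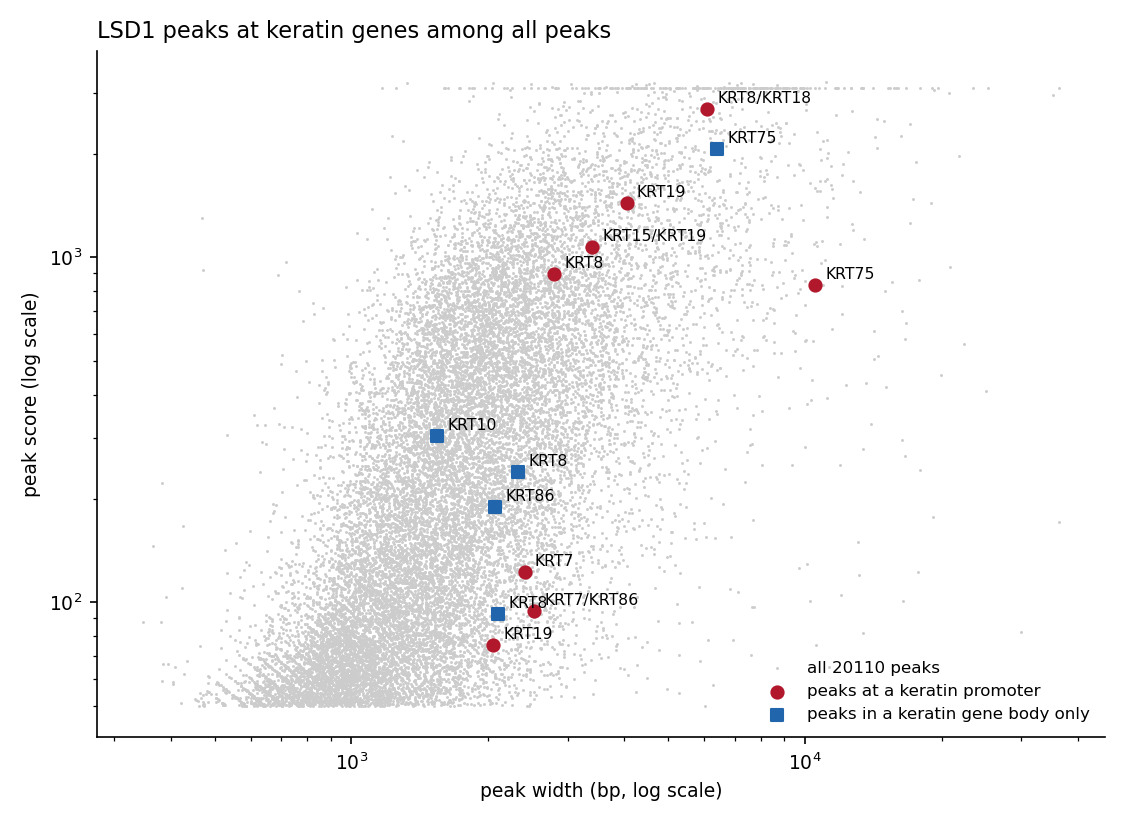
Width in bp against score for all 20110 peaks (grey), for 8 peaks at keratin promoters (red) and for 5 in keratin gene bodies only (blue squares), on log axes. The keratin peaks run from a score of 75.15 to 2687.24, and the wide peak of KRT75 lies to the right of others of its score.

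The 13 peaks that reached a keratin promoter or gene had a median score of 304.01 and a median width of 2531 bp. Over the whole list, at promoters or not, the medians were 205.87 and 1649 bp. Counting by any base favours wide peaks, and medians for peaks at other promoters or genes were not taken. The 8 peaks at promoters alone had a median score of 863.8, with 5 of them from 830.93 to 2687.24 and 3 from 75.15 to 122.27. At or above the median score of the list, KRT8, KRT15, KRT18, KRT19 and KRT75 retained a promoter peak, and KRT7 and KRT86 did not.

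Along the chromosomes the peaks were gathered at a few places. The chromosome 12 cluster, from KRT80 to KRT18 (chr12:52562780-53346690, 0.784 Mb), held 27 protein-coding genes, all keratins, and 12 peaks by midpoint. Its density of 15.3 peaks per Mb (exact Poisson interval 7.91 to 26.7) overlapped that of the 1 Mb on the side of KRT80 (20.0, interval 12.2 to 30.9) and was below that of the 1 Mb beyond KRT18 (43.0, interval 31.1 to 57.9). The chromosome 17 cluster, from KRT222 to KRT17 (chr17:38810917-39781094, 0.97 Mb), held 28 keratin and 34 keratin-associated protein genes and 7 peaks. At 7.22 peaks per Mb (interval 2.9 to 14.9) it was below both of its flanks, at 24.0 (interval 15.4 to 35.7) and 33.0 (interval 22.7 to 46.3). The density of chromosome 17 as a whole, 16.6 (interval 15.7 to 17.5), also lay above the interval of its cluster, and that of the genome, 7.03, lay within it. The chromosome 12 cluster was denser than chromosome 12 as a whole, at 8.5, which lay within its interval, and than the genome, which lay below it. Per protein-coding gene the 2 clusters had 0.444 and 0.113 peaks, and the 4 flanks had 0.828 to 1.54. In the flanks 10 of 17, 24 of 28, 17 of 29 and 23 of 36 genes had a promoter peak, and 58.1% of all protein-coding genes did. All of these but the 24 of 28, beyond KRT18, were near that share.

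Only 5 of the 19 peaks in the 2 clusters (26.3%) had their midpoint within 1 kb of any annotated start site of a protein-coding gene, against 55.1% of all peaks. Both KRT7 peaks and the KRT18 peak counted only through transcripts with a retained intron or no defined coding sequence. The wide peaks over the canonical starts of KRT19 and KRT75 did not count, because their midpoints lay further off. By any base, 8 peaks reached a keratin promoter. Of the 19 peaks, 6 touched neither the promoter nor the body of a keratin gene, with scores from 52.07 to 601.8. The highest of these (chr17:39058439-39060435) lay between KRT20 and KRT23. On chromosome 12 the strong peaks were those at KRT75 and, at the end of the cluster, those at KRT8 and KRT18. On chromosome 17 they were those at KRT15 and KRT19.

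**Figure D4:**
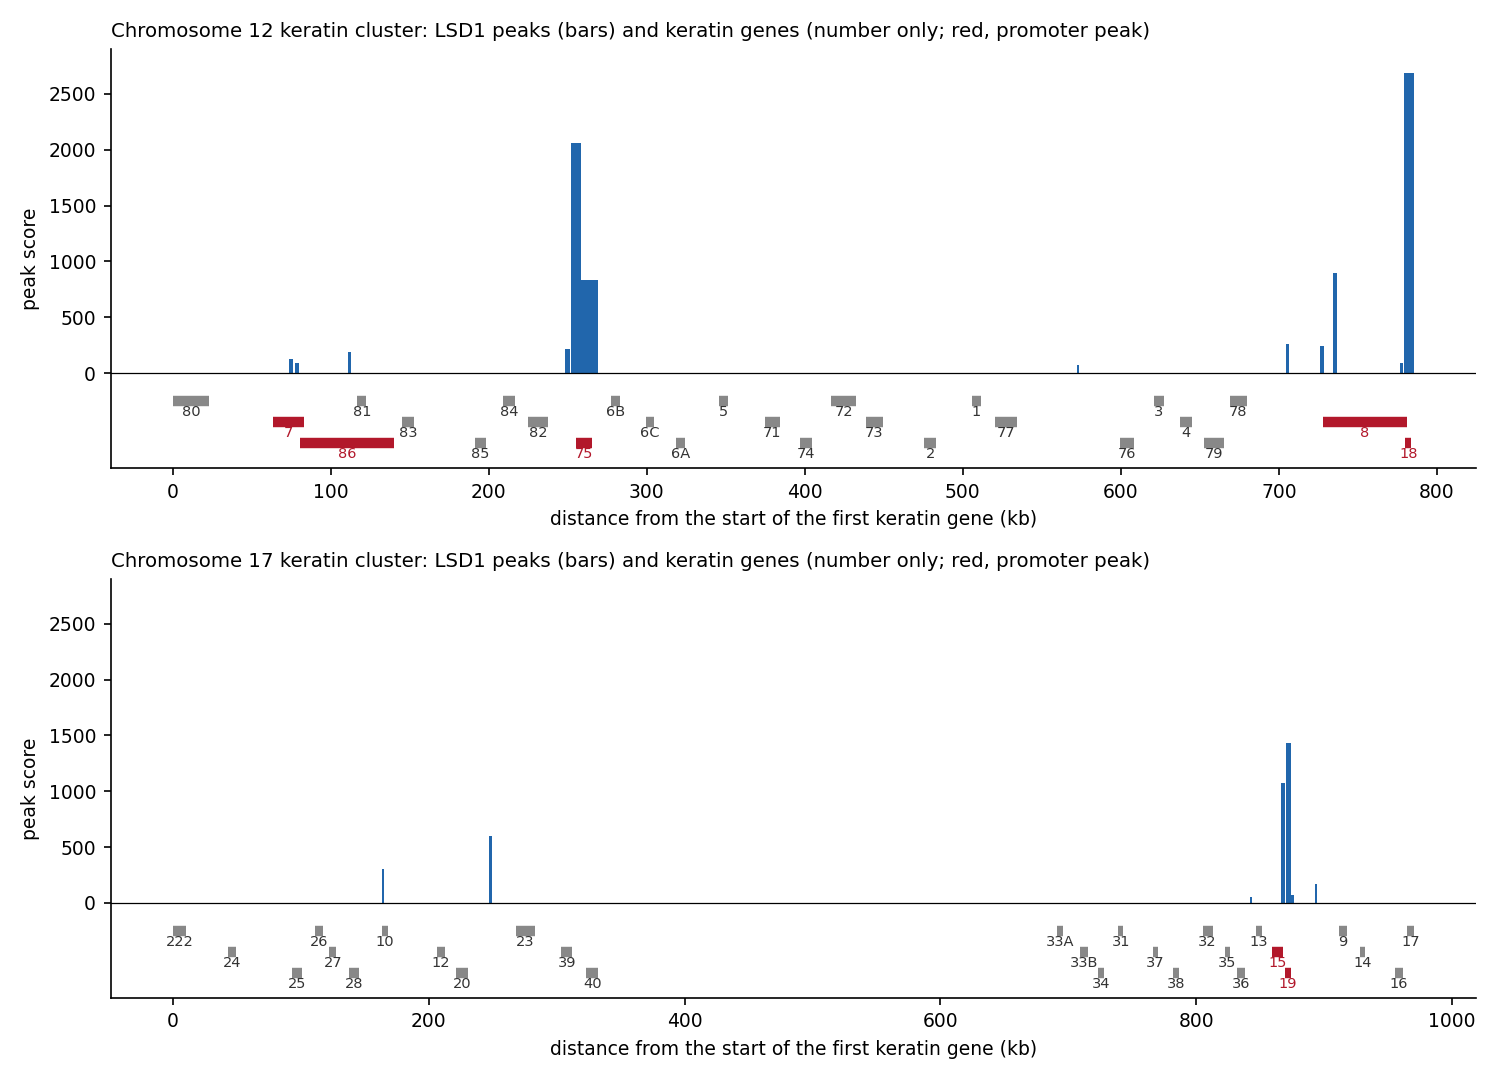
Peaks (bars, with height as score and width to scale down to a drawn minimum of 1.5 kb) and keratin genes (numbers are the gene symbols without KRT, red with a promoter peak) along the chromosome 12 and 17 clusters, by distance in kb from the first keratin gene. High bars stand at KRT75, KRT8, KRT18, KRT15 and KRT19, and long stretches between them have none.

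The 47 keratin genes without a peak lay in 9 intervals between neighbouring peaks. The longest, of 592 kb (chr17:39060436-39652805), held KRT23, KRT39, KRT40, the hair keratins from KRT33A to KRT36 and 34 keratin-associated protein genes, 46 protein-coding genes in all. Of 20086 intervals between neighbouring peaks in the genome, 4 held more protein-coding genes and 5.27% were longer. The median interval was 23.6 kb. On chromosome 12 an interval of 303 kb (chr12:52831678-53134876) held 11 keratin genes and no other, among them the basal KRT5, the stress keratins KRT6A, KRT6B and KRT6C, the epidermal KRT1 and KRT2, and KRT71 to KRT74 of the inner root sheath. An interval of 117 kb on chromosome 17 (chr17:39705182-39821855) held KRT9, KRT14, KRT16 and KRT17, so both partners of the basal pair, KRT5 and KRT14, lay in stretches with no peak.

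The median keratin gene lay 34964 bp from the nearest peak, and 42 of 55 (76.4%) lay more than 10 kb away, against 32.8% of all protein-coding genes. Among simple epithelial keratins without a peak, KRT20 was 16945 bp and KRT23 18517 bp from one. In the basal and stress group the distances ran from 8758 bp at KRT6B to 76682 bp at KRT5. In the differentiation group they ran from 3528 bp at KRT13 to 88882 bp at KRT2. Inner root sheath keratins without a peak were 18501 bp (KRT28) to 139555 bp (KRT72) away, and hair keratins 4008 bp (KRT36) to 145726 bp (KRT33A). KRT222, at the edge of the chromosome 17 cluster, was 5933 bp from the peak at the promoter of SMARCE1, a chromatin remodelling subunit gene, which scored 411.47. The first promoters with a peak beyond the other 3 cluster ends were those of ATG101, an autophagy gene (score 461.47, gene 91501 bp away), EIF4B (2202.9, 53376 bp) and EIF1 (3100, 64043 bp), both translation initiation factor genes. The score of 3100 is one that many peaks of the list share, seen as a row of points in the plot of width and score.

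Keratin promoters were poorer in CpG than most. The 1000 bp around the canonical TSS was 54.4% GC at the median keratin gene and 61.4% at the median protein-coding gene. The ratio of observed to expected CpG was 0.269 at the former and 0.726 at the latter. Over 55% GC and a ratio over 0.65, here called CpG-rich, described 3 keratin promoters, those of KRT7, KRT18 and KRT19, and 11254 protein-coding promoters. All 3 had a promoter peak, but that of KRT7 was internal to the gene and its CpG-rich start had none. The class as a whole had a promoter peak at 78.8%. At the canonical TSS, 2 of the 3 keratins and 77.1% of the class had one. Among the 52 CpG-poor keratin genes, KRT8, KRT15, KRT75 and KRT86 had one (7.69%, interval 2.14 to 18.5), below the 32.9% of all CpG-poor genes. At the canonical TSS, 2 of the 52 (3.85%) and 27.8% of all CpG-poor genes had one.

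Genes with more annotated start sites had promoter peaks more often. Over all protein-coding genes the share was 26.3% with 1 start site, 41.7% with 2 or 3 and 71.1% with 4 or more, and at the canonical TSS alone it was 25.9%, 39.0% and 66.9%. Over keratin genes the counts were 1 of 22, 1 of 17 and 5 of 16, and at the canonical TSS alone 1, 0 and 3. Keratin genes had a median of 2 distinct start sites and all protein-coding genes 5, whereas the 7 keratin genes with a promoter peak had a median of 7. Among CpG-poor genes with 1 start site, 1 of 22 keratins (4.55%, interval 0.115 to 22.8) and 12.6% of all such genes had a peak, a difference within the interval. Among those with 2 or more, 3 of 30 keratins (10.0%, interval 2.11 to 26.5) and 39.4% of all such genes did, a share outside that interval. The interval does not allow for neighbouring keratin genes that lie in the same stretch without a peak. Whether CpG content or annotation has any part in the low count was not tested.

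**Figure D5:**
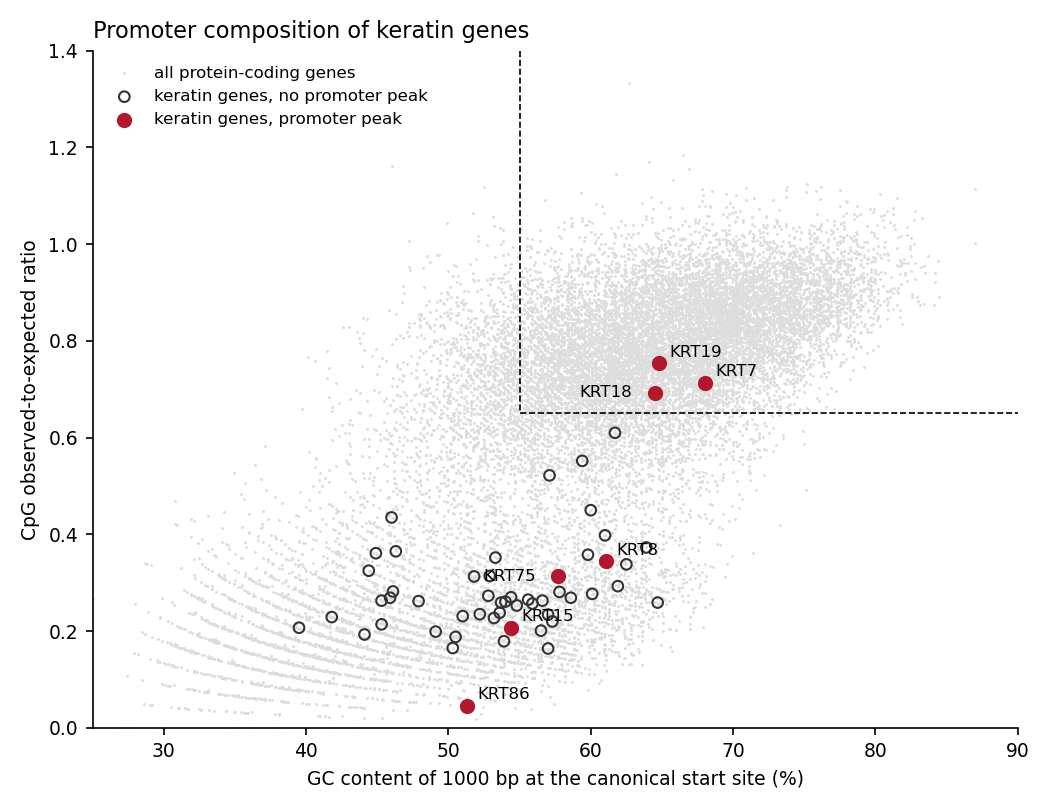
GC content in % against CpG observed-to-expected ratio in the 1000 bp around the canonical start site, for all protein-coding genes (grey), keratin genes without a promoter peak (open circles) and keratin genes with one (red). Dashed lines enclose the CpG-rich class, which holds KRT7, KRT18 and KRT19.

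Keratin promoters held the TATA box more often, and the GC box less often, than promoters at large. In the 250 bp upstream of the canonical TSS, on both strands, TATAAA occurred at 27 of 55 keratin genes (49.1%) and at 9.26% of all protein-coding genes. It was present at KRT8 alone among the 7 genes with a promoter peak and at 26 of the 48 without. GGGCGG occurred at 10 keratin genes (18.2%) and at 59.2% of all, at 4 of the 7 with a peak and 6 of the 48 without. Of the 7, KRT7, KRT15 and KRT86 had no peak within 1 kb of the canonical TSS. At the 4 with a peak there, TATAAA occurred at 1 and GGGCGG at 3. CCGGAAG, a motif of ETS factors, occurred at 0 keratin genes and at 11.9% of all. TGANTCA, the AP-1 motif, occurred at 5 keratin genes (9.09%) and at 4.7% of all. Those 5 were KRT13, KRT14, KRT15, KRT16 and KRT17, which lie close together on chromosome 17 and some of which share sequence as recent duplicates. None of the 4 motifs contains another, and these are matches of letters, not binding sites.

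Several keratins have near-identical copies, which can reduce the number of reads that an aligner places with confidence. Within 1 kb of the canonical TSS, the median keratin gene had 97.4% of its 32-base words at a single place in the reference. This percentage was lowest at KRT6C (50.8%), KRT6B (57.1%), KRT81 (59.1%), KRT16 (62.7%) and KRT17 (64.1%), which had no peak. KRT14 stood at 72.0% and KRT6A at 72.4%, also with none, while KRT18 (73.6%) and KRT8 (76.9%) had high-scoring peaks at similar values. The median was 96.7% at the 7 genes with a promoter peak and 97.6% at the 48 without. At the 4 genes with a peak within 1 kb of the canonical TSS itself it was 82.0%. Whether repeated sequence has any part in the absence of peaks at KRT6A, KRT6B, KRT6C, KRT16 and KRT17 was not tested.

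Genes for keratin anchors and for other intermediate filaments had promoter peaks more often than the keratins, with intervals that did not overlap that of the 55 keratin genes. Among 16 genes whose products anchor keratin filaments at desmosomes and hemidesmosomes or bind them, 13 had a promoter peak (81.2%, interval 54.4 to 96.0). That interval includes the 58.1% of all genes, so the list did not stand apart from genes at large. Scores were highest at FAM83H, a keratin-binding scaffold (1351.99), DSC3, a desmosomal cadherin (1311.3), PKP3, a plakophilin of the desmosomal plaque (1148.31), and PLEC, the cytolinker plectin (537.86, not at the canonical TSS), while DSG3, EPPK1 and PKP1 had none. Of 15 intermediate filament genes other than keratins, 9 had one (60.0%, interval 32.3 to 83.7), about the share of all genes. Scores were led by VIM, the mesenchymal filament vimentin (1711.79), LMNA of the nuclear lamina (891.68), BFSP1 of the lens (823.58) and LMNB1, also of the lamina (637.86). BFSP2, DES, GFAP and INA were among the 6 without. Among 12 epithelial transcription factor genes, 4 had a promoter peak (33.3%, interval 9.92 to 65.1, which includes the 58.1% of all genes). Their scores were 2380.88 at KLF4, 1919.63 at TFAP2A, 1089.56 at ELF3 and 731.76 at KLF5. A peak in the gene body was present at 10 of the 12 (83.3%, interval 51.6 to 97.9, which includes the 61.2% of all protein-coding genes). EHF, GRHL1, GRHL2 and GRHL3 were among those with a body peak and no promoter peak. None of the 94 keratin-associated protein genes, which encode the matrix between hair keratin filaments, had a peak at a promoter or in the gene (interval 0 to 3.85%), including the 34 within the chromosome 17 cluster.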

How the data were processed

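The data were 1 library of LSD1 ChIP DNA and 1 of input DNA from PC-3M-luc cells. Per the labels' protocols, reads were mapped to hg19 with bowtie 2, and the submitters' processing notes name MACS 1.41, Bowtie2, hg19 and mm10. Settings, duplicate handling, the threshold and read depth are not given in the sources used here. The deposited score per peak (50 to 3226.07) is the authors' value, of unstated scale. The list was taken as LSD1 against input, which the labels do not state outright. Its 24 chromosome names occur in GRCh37 and 0 peaks pass a chromosome end. Genes came from GENCODE 44 mapped to GRCh37. Coordinates are 1-based. Intervals on densities are exact Poisson at 95%.

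Every member with a peak was named, and in each role group the members nearest to and farthest from a peak, with up to 4 genes per other list. The members and lists were chosen with earlier results of these data known. Alternatives were the midpoint criterion, windows of 500 bp and 5 kb, the canonical TSS, scores of at least 100 or the median, removal of the widest 1%, any overlap with a cluster and, added after seeing the data, start sites of coding transcripts only. CpG classes lacked a value for 300 genes. Simulated peaks were placed within 1 kb of start sites of 200 of 20163 genes. The promoter criterion recovered all 200, which the placement fixed in advance, and called 236 genes in all. This checked the code and says nothing of sensitivity. Scripts ran in Python 3.11.15 with matplotlib 3.10.9, numba 0.67.0, scipy 1.17.1 (intervals), numpy 2.4.6 and pandas 2.3.3.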

Additional observations from a re-analysis of the deposited data

How the results depend on the processing

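No paired analysis was possible because LSD1 and input were represented by a single library apiece. The count of keratin genes with a promoter peak was 4 with the midpoint criterion (KRT7, KRT8, KRT15, KRT18) and 4 with the canonical TSS only (KRT8, KRT18, KRT19, KRT75), against 54.6% and 54.9% of all genes. It ran from 5 to 10 under the other alternatives, where the share of all genes ran from 45.9% to 61.1%. For type I genes it was 6 with a window of 5 kb, which added KRT10, KRT13 and KRT36. For type II genes it was 2 with the midpoint criterion, 2 with the canonical TSS only and 2 at or above the median score. KRT75 depended on a peak among the widest 1% and KRT7 on start sites of transcripts without a coding sequence. Of 36 alternative values for the promoter and gene body counts and the cluster densities, 30 stayed within 1.5 times the count or within the density's interval and 6 moved, as given. Of those for role groups and single genes, 105 stayed and 23 moved. With scores of at least 100 the chromosome 12 cluster (11.5 peaks per Mb) exceeded its flank beside KRT80 (10.0), as it did at or above the median score (8.93 and 8.0). Depth is unknown, so weak binding at the other keratin genes cannot be judged.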

Other observations

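KRT8 and KRT18 have many pseudogenes scattered over the genome. Of 151 annotated keratin pseudogenes, 2 were overlapped by a peak. Among processed pseudogenes the count was 1 of 126 for keratins (0.794%) and 80 of 9967 for other genes (0.803%). None of the 68 KRT18 pseudogenes carried one, and 1 of 51 KRT8 pseudogenes did. That one, KRT8P12, overlaps the gene KPNA4, and its peak (chr3:160282154-160284549, score 1671.79) had its midpoint at a promoter of a protein-coding gene. The second was KRT90P, beside KRT75.

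The AP-1 motif TGANTCA, searched on both strands in the 200 bp at each peak midpoint, was found at 0 of the 13 peaks that reached a keratin promoter or gene, at 3 of the 6 cluster peaks away from every keratin gene, and at 5.92% of all peaks. In the same 200 bp, GGGCGG was found at 1 of the 13 and at 32.6% of all peaks. The rest of each peak was not searched, and the 13 were wider at the median (2531 bp) than all peaks (1649 bp). The shares therefore do not show whether a peak lacks the motif. Upstream of the canonical starts of KRT18, KRT19 and KRT75, which lay under peaks, GGGCGG was present. The division of cluster peaks into those at and those away from keratin genes was made after the data were seen.

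Of the intervals between neighbouring peaks, 4 held more protein-coding genes than the 46 of the chromosome 17 keratin cluster. Those on chromosome 11 held 72, with OR4B1 among them, and 67, with OR51D1 among them. The chromosome 8 interval held 51, with DEFB1 among them. The chromosome 1 interval held 47 (chr1:152162168-153394869), with HRNR, FLG and FLG2, genes of the cornified epidermis. An interval on chromosome 21 (chr21:30721159-32715856) held 37 protein-coding genes, of which 33 encode keratin-associated proteins. Another on chromosome 1 (chr1:158070044-159823619), with CD1D among its genes, also held 37. The intervals with FLG and with keratin-associated protein genes on chromosome 21 were chosen after their values were seen.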
